A study of Mus musculus with 13 samples.

Results

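The S100A and annexin genes described here were 10 genes of the midbrain: S100a1, S100a4, S100a6, S100a10, S100a11, S100a13, S100a16, Anxa1, Anxa2 and Anxa3. They were chosen by name among the 49315 genes counted in every library. RNA-Seq libraries were made from whole midbrains of 13 male mice, 1 mouse per library, aged 8 to 12 weeks. All mice carried Ripk3fl/fl, a loxP-flanked allele of the kinase gene Ripk3, and all had received tamoxifen (60 mg/kg for 5 days). In Ripk3fl/fl Aldh1l1Cre+ mice (Cre+) a tamoxifen-inducible recombinase is driven by the promoter of Aldh1l1, a gene of astrocytes, so that Ripk3 is deleted in that cell type. Littermates without the recombinase (Cre-) served as controls. Mice of each genotype then received 5 daily doses of saline or of MPTP (20 mg/kg), a toxin of dopaminergic neurons, and midbrains were harvested 3 days later. Each combination of genotype and treatment had 3 mice, except Cre+ MPTP, which had 4. The comparisons ask how the toxin moves these genes in each genotype and whether the loss of astrocytic Ripk3 changes that.

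S100 proteins are small calcium sensors with EF-hand motifs that mostly act as dimers. Annexins bind membrane phospholipids when calcium rises, and several are recruited to damaged membranes. Members of the families meet in shared complexes: S100A10 binds annexin A2, and S100A11 binds annexins A1 and A2. Some are also released from cells and act as ligands, with RAGE, TLR4 and formyl peptide receptors among the known receptors. In brain, several S100 genes are expressed by astrocytes, and S100a10 has been used as a marker of a reactive astrocyte state.

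Totals assigned to genes ran from 11489150 to 29397278 counts per library, with a median of 24907639. The library of Cre- MPTP replicate 1 stood apart. It had the lowest total, 21101 genes with a count against 25432 to 27186 in the other 12 libraries, and 1.12% of counts in mitochondrial genes against 3.55% to 6.06%. The summed CPM of its 6 astrocyte markers was 1321 against 1970 to 2735 elsewhere (CPM, library-size-scaled counts after TMM normalization). Cre+ MPTP replicate 4 held 6831 CPM of cardiac and skeletal muscle markers, against 11.8 to 159 in the other libraries. Pituitary markers summed to 608 and 447 CPM in Cre+ Saline replicates 1 and 3, against 6.1 to 82.5 elsewhere. Choroid plexus markers reached 69.5 CPM in Cre+ MPTP replicate 1, against 9.44 to 18.2 elsewhere. Ependymal markers reached 92.9 CPM in Cre- MPTP replicate 1, against 25.7 to 44.3 elsewhere. Ripk3 itself had 4 to 40 counts per library, too few to check the genotype of single mice. Fewer cells of a type and less RNA per cell cannot be told apart in whole tissue.

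In the midbrain of Cre- mice, S100a6, S100a11, Anxa2 and Anxa3 had values 1.54- to 2.02-fold those of Saline after MPTP, but none of them passed the test with all 13 libraries. Of the 10 genes, 9 had enough counts to be tested (at least 10 counts in at least 3 libraries) and S100a4 did not. At an edgeR adjusted p under 0.05, 0 of the 9 were called between Cre- MPTP and Cre- Saline, where 3.18% of all 19360 genes tested were called. At an unadjusted p under 0.05 there were 2 of the 9, S100a11 and Anxa3, against 15% of all genes. DESeq2 called 1 of the 9 (6.17% of all genes) and limma voom with sample quality weights called 4 (13.6%). The number of calls turned on the library that stood apart. With Cre- MPTP replicate 1 left out, edgeR called 4 of the 9, where 9.38% of all genes were called. S100a11, Anxa2 and Anxa3 then rose and S100a16 fell.

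Between the genotypes after MPTP the calls also depended on the libraries used, but not on Cre- MPTP replicate 1 alone. With all libraries 0 of the 9 genes were called between Cre+ MPTP and Cre- MPTP by edgeR, where 1.54% of all genes were called, and 2 of the 9 (S100a11 and Anxa3 again) had an unadjusted p under 0.05, against 19% of all genes. DESeq2 called 1 gene (4.44% of all genes) and limma voom called 4 (6.32%). Without Cre- MPTP replicate 1 edgeR called S100a11 as lower in Cre+ MPTP, with 3.18% of all genes called. It called Anxa3 as lower without Cre- MPTP replicate 2 (9.51% of all genes) and S100a6 as lower without Cre+ MPTP replicate 2 (1.54%). This comparison shares the Cre- MPTP libraries with the comparison of MPTP and Saline in Cre- mice, so the values of each are given side by side below and not as separate evidence.

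Within Cre+ mice MPTP gave 0 of 9 calls by edgeR, DESeq2 and limma voom, with 0%, 0.441% and 1.52% of all genes called, and 0 of the 9 had an unadjusted edgeR p under 0.05 (3.47% of all genes). Between the Saline groups there were likewise 0 of 9 calls by the 3 tools, with 0%, 0.0106% and 0.0155% of all genes called, and 0 of the 9 at an unadjusted p under 0.05 (0.909% of all genes). The test of the difference between the genotypes' responses to MPTP, the interaction, called 0 of 9 genes by edgeR, 0 by DESeq2 (1.19% of all genes) and 2 by limma voom (3.56%). There 0.0103% of all genes were called by edgeR, and 0 of the 9 had an unadjusted p under 0.05 (5.76% of all genes). Between the Saline groups the log2 fold changes were -0.18 for S100a1, -0.01 for S100a6, -0.04 for S100a10, -0.19 for S100a11, -0.32 for S100a13 and -0.12 for S100a16. They were -0.02 for Anxa1, 0.12 for Anxa2 and -0.15 for Anxa3. The interaction was 0.44 for S100a1, 0.48 for S100a6, -0.31 for S100a10, 0.09 for S100a13 and -0.26 for S100a16. It was 0.09 for Anxa1 and -0.42 for Anxa2, and those of S100a11 and Anxa3 are given with these genes.

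**Figure D1:**
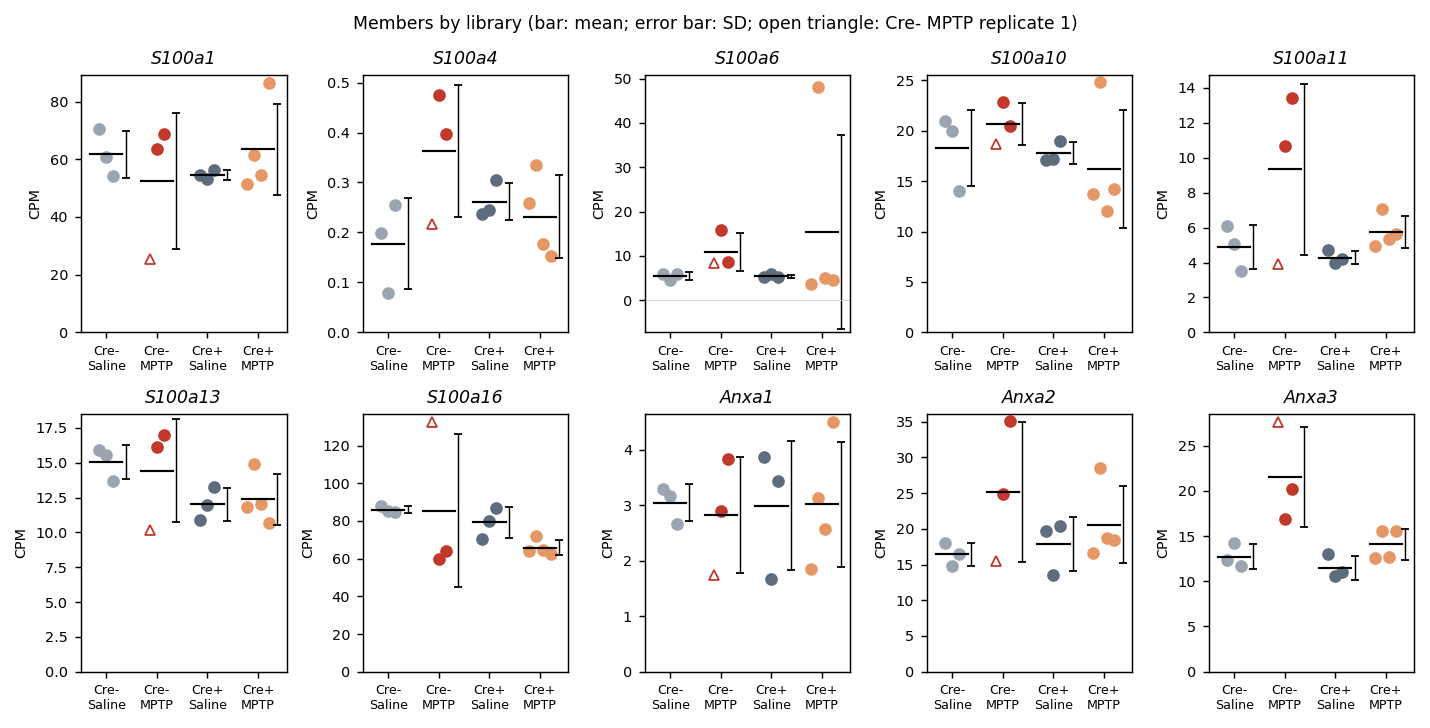
TMM-scaled CPM of the 10 genes in each of the 13 libraries, on axes that start at 0 except for S100a6, where the SD of Cre+ MPTP reaches below 0. Points are mice, horizontal bars are group means and error bars are SD, and the open triangle is Cre- MPTP replicate 1. S100a11 was highest in the other Cre- MPTP libraries, Anxa2 was highest in Cre- MPTP replicate 3, and S100a6 reached 48.2 CPM in 1 Cre+ MPTP library.

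The genes differed widely in level. Divided by exon length, S100a1 was the most abundant, with a median over the 13 libraries of 81.3 CPM per kb and a range of 36.9 to 124. S100a16 followed with 44.5 CPM per kb (37.1 to 82.0), S100a13 with 18.5 (14.3 to 23.7), S100a10 with 15.4 (9.96 to 20.5) and S100a11 with 9.86 (6.93 to 26.3). S100a1 exceeded S100a16 in 12 of 13 libraries, the exception being Cre- MPTP replicate 1, and S100a16 exceeded S100a13 in 13 of 13. Below them lay Anxa2 with a median of 4.94 CPM per kb, S100a6 with 4.29 and Anxa3 with 3.57. These neighbours were not separated by their spread, since Anxa2 exceeded S100a6 in 9 of 13 libraries and S100a6 exceeded Anxa3 in 9 of 13. Anxa1 (1.201 CPM per kb) and S100a4 (0.418 CPM per kb) were the lowest.

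The 7 S100A genes lie on chromosome 3 of GRCm38, 5 of them within a stretch that starts at S100a1 and ends at S100a6, while S100a11 (chr3:93520488-93526287) and S100a10 (chr3:93555080-93564643) neighbour each other farther along. Anxa1 is on chromosome 19, Anxa2 on chromosome 9 and Anxa3 on chromosome 5. Counts were taken over exons, and how strand was set in counting is not given in the sources used here. Anxa1 lies within the span of the lincRNA gene 1500015L24Rik on the opposite strand (1 to 69 counts per library), which makes its counts uncertain. S100a4, Anxa2 and Anxa3 overlap other annotated genes with at most 3 counts per library.

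S100A11, the partner of annexins A1 and A2 in membrane repair, is encoded by S100a11. Its CPM was 6.07, 5.04 and 3.54 in Cre- Saline, 3.902, 10.7 and 13.4 in Cre- MPTP, 4.69, 3.95 and 4.23 in Cre+ Saline, and 4.95, 7.05, 5.37 and 5.61 in Cre+ MPTP. Cre- MPTP replicates 2 and 3 lay above every other library, while replicate 1 lay within the Saline range. The log2 fold change with MPTP in Cre- mice was 0.95 (SE 0.356, edgeR adjusted p = 0.238) with all libraries. Without replicate 1 S100a11 rose, with 1.31 as its log2 fold change (SE 0.220, edgeR adjusted p = 0.00209), or 2.47-fold, and without replicate 3 the value was 0.60.

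In Cre+ mice the log2 fold change of S100a11 with MPTP was 0.42 (95% CI -0.31 to 1.15, edgeR adjusted p = 1.00). Every Cre+ MPTP library lay above every Cre+ Saline library, as for 9.66% of all genes tested. Between Cre+ MPTP and Cre- MPTP the log2 fold change was -0.72 (SE 0.328, edgeR adjusted p = 0.258) with all libraries. S100a11 was lower by -1.08 (SE 0.205, edgeR adjusted p = 0.0109) without Cre- MPTP replicate 1, and had -0.36 without replicate 3. The interaction was -0.53 (SE 0.486, edgeR adjusted p = 0.813) with all libraries and -0.89 without Cre- MPTP replicate 1, short of the threshold in both. With limma voom, which gives less weight to a library that departs from the model, it was -1.01 (limma adjusted p = 0.0208).

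ANXA2, a membrane-cytoskeleton linker that gathers plasminogen and its activator at the cell surface, is encoded by Anxa2 (chr9:69453620-69491795). Its CPM was 18.1, 14.8 and 16.4 in Cre- Saline and 15.5, 24.9 and 35.0 in Cre- MPTP. It was 19.7, 13.6 and 20.4 in Cre+ Saline and 16.6, 28.5, 18.7 and 18.4 in Cre+ MPTP. As for S100a11, Cre- MPTP replicate 1 lay with the Saline libraries and replicate 3 was the highest of all 13. Cre+ MPTP replicate 2 was the highest of its own group.

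The log2 fold change of Anxa2 with MPTP in Cre- mice was 0.62 (SE 0.286, edgeR adjusted p = 0.334) with all libraries. Anxa2 rose by 0.87 (SE 0.229, edgeR adjusted p = 0.0304) without replicate 1, and had 0.30 without replicate 3. In Cre+ mice it was 0.20 (95% CI -0.38 to 0.78) and 0.00020 without Cre+ MPTP replicate 2. The genotypes differed after MPTP by -0.30 (SE 0.266, edgeR adjusted p = 0.525), by -0.55 without replicate 1 of Cre- MPTP and by 0.02 without replicate 3, so the direction turned on that library. With limma voom this difference passed (-0.71, limma adjusted p = 0.0220), as did the interaction of Anxa2 (-0.94, limma adjusted p = 0.0488).

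S100A10 is the constitutive partner of annexin A2 and also carries ion channels and receptors to the membrane. S100a10 had 20.9, 19.96 and 13.98 CPM in Cre- Saline, 18.6, 22.8 and 20.5 in Cre- MPTP, 17.1, 17.2 and 19.0 in Cre+ Saline, and 13.8, 24.8, 12.1 and 14.2 in Cre+ MPTP. The groups overlapped, with Cre+ MPTP replicate 2 the highest library and the other 3 Cre+ MPTP libraries among the lowest. The log2 fold change with MPTP was 0.18 (95% CI -0.37 to 0.72) in Cre- mice and -0.13 (95% CI -0.64 to 0.37) in Cre+ mice. Between the MPTP groups it was -0.35 (SE 0.235, edgeR adjusted p = 0.415) with all libraries and -0.63 (SE 0.179, edgeR adjusted p = 0.148) without Cre+ MPTP replicate 2. The difference between S100a10 and its partner Anxa2 in these values was not tested.

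Annexin A3, abundant in neutrophils and in rodent microglia, is encoded by Anxa3 (chr5:96793339-96845966). Its CPM was 12.3, 14.3 and 11.7 in Cre- Saline, 27.6, 16.8 and 20.2 in Cre- MPTP, 13.01, 10.5 and 10.97 in Cre+ Saline, and 12.5, 15.6, 12.7 and 15.6 in Cre+ MPTP. All 3 Cre- MPTP libraries lay above the other 10. Here Cre- MPTP replicate 1 was the highest library, unlike for S100a11 and Anxa2. Groups without overlap were found for 15.1% of all genes between Cre- MPTP and Cre- Saline and for 11.3% between the MPTP groups.

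Anxa3 had the smallest adjusted p of the 9 genes. Its log2 fold change with MPTP in Cre- mice was 0.75 (SE 0.196, edgeR adjusted p = 0.0638), a 1.69-fold difference. It rose by 0.54 (edgeR adjusted p = 0.0393) without Cre- MPTP replicate 1 and by 0.89 (edgeR adjusted p = 0.0223, 3.87% of all genes called) without replicate 2, and DESeq2 called it with all libraries (0.78, DESeq2 adjusted p = 0.00743). In Cre+ mice the log2 fold change was 0.29 (95% CI -0.11 to 0.69). Between the MPTP groups it was -0.61 (SE 0.181, edgeR adjusted p = 0.147). There Anxa3 was lower by -0.75 (edgeR adjusted p = 0.0351, 9.51% of all genes called) without Cre- MPTP replicate 2, while it had -0.40 (edgeR adjusted p = 0.318) without replicate 1. DESeq2 called this difference too (-0.63, DESeq2 adjusted p = 0.0406). The interaction was -0.46 (SE 0.267, edgeR adjusted p = 0.795).

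Neutrophil markers were higher in Cre- MPTP than in every other group. The summed CPM of the 6 neutrophil markers was 6.61, 4.12 and 22.9 in Cre- MPTP, against 0 to 0.876 in Cre- Saline, 0.244 to 2.74 in Cre+ Saline and 0.296 to 1.46 in Cre+ MPTP. Of the 6 markers, 3 were tested and 2 (Mmp8 and Retnlg) were called as higher with MPTP in Cre- mice. In Cre- MPTP libraries Ltf was the marker that had 0 counts in a library, while in Cre- Saline all 6 had 0 counts in at least 1 library. The library with the most neutrophil RNA, Cre- MPTP replicate 3, was also the highest for S100a11 and Anxa2. Replicate 1 of that group had more neutrophil RNA than replicate 2 but less S100a11 and Anxa2. Anxa3 was highest in replicate 1. Endothelial markers summed to 272 to 433 CPM in Cre- MPTP and 247 to 272 in Cre- Saline, with the highest value in Cre- MPTP replicate 1. Microglia markers summed to 117 to 165 CPM in Cre- MPTP and 178 to 211 in Cre- Saline. Of the 6, 2 were called as lower with MPTP in Cre- mice. Between the MPTP groups 2 of the 6 were called as higher in Cre+ MPTP (176 to 229 CPM). Oligodendrocyte markers summed to 9167 to 11780 CPM in Cre- MPTP and 12490 to 17150 in Cre- Saline, and 2 of the 6 were called as lower. Border macrophage and monocyte markers summed to 6.07 to 14.2 CPM in Cre- MPTP and 11.5 to 12.2 in Cre- Saline, with 1 of 6 called as lower. Astrocyte markers summed to 1321, 2735 and 2692 CPM in Cre- MPTP replicates 1, 2 and 3, and to 1970 to 2445 in Cre- Saline. Of the 6, 1 was called as higher with MPTP in Cre- mice. In Cre+ MPTP they summed to 2387 to 2565 CPM, with 0 of the 6 called between the MPTP groups. The part of these cell types in the values of S100a11, Anxa2 and Anxa3 was not tested.

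**Figure D2:**
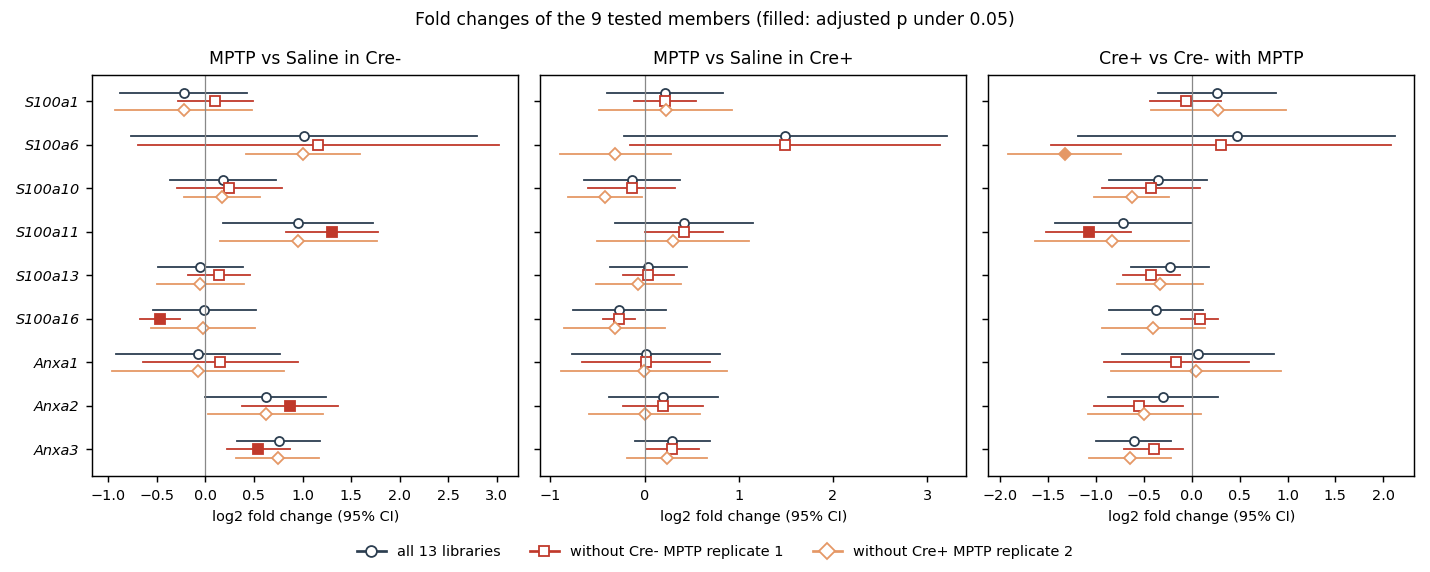
Log2 fold changes with 95% confidence intervals of the 9 tested genes in 3 comparisons, by edgeR with all 13 libraries (circles), without Cre- MPTP replicate 1 (squares) and without Cre+ MPTP replicate 2 (diamonds). Filled symbols passed an adjusted p of 0.05. With MPTP in Cre- mice S100a11, Anxa2, Anxa3 and S100a16 passed only without Cre- MPTP replicate 1 among these 3 fits. Between the MPTP groups S100a11 passed only without Cre- MPTP replicate 1, and S100a6 only without Cre+ MPTP replicate 2.

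Stretches just before the annotated start of S100a11 and Anxa2 are shown because these genes had the highest Pearson r of the set over the 13 libraries. Promoter windows of RefSeq for GRCm38.p6, from 250 bases before to 50 after each start, were found for 8 of the 10 genes in 9 windows. The windows were searched on both strands for TGANTCA, the motif of AP-1, a transcription factor of growth and stress signals. The part before the start is printed 5′ to 3′ on the plus strand, from chr3:93520246-93520487 and chr9:69453433-69453619, with matches in capitals.
S100a11: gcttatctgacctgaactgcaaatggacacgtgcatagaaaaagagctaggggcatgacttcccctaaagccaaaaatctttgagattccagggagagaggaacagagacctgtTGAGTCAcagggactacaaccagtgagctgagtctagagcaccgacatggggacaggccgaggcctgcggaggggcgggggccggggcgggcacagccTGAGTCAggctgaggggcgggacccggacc
Anxa2: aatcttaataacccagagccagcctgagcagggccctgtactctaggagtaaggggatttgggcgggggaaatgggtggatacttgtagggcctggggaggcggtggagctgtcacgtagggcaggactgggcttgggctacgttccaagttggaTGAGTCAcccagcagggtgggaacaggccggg
The motif was in 3 of the 9 windows (2 matches for S100a11, 1 for Anxa2 and 1 in 1 of the 2 windows of S100a16), against 7.81% of the 32851 windows of all genes. The GC box GGGCGG was in windows of the same 3 genes (35.7% of all windows), and TATAAA was in those of Anxa1, Anxa2 and S100a4 (13.6%). TTCNNNGAA, a motif of STAT factors, was in 0 of the 9 windows (8.30% of all). The other motifs searched were CCAAT, in 1 of the 9 windows, that of S100a6 (37.4% of all), and TGACGTCA, in 0 (1.79% of all). These matches describe letters in a window and do not show that a factor binds there. S100a10 and Anxa3 had no window in the table.

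Annexin A1, an anti-inflammatory ligand of formyl peptide receptors that glucocorticoids raise, is encoded by Anxa1 (chr19:20373428-20390944). It had 3.29, 3.16 and 2.67 CPM in Cre- Saline, 1.73, 2.89 and 3.83 in Cre- MPTP, 3.86, 1.67 and 3.43 in Cre+ Saline, and 1.85, 3.13, 2.57 and 4.50 in Cre+ MPTP. All 4 groups overlapped. The log2 fold change was -0.08 (95% CI -0.92 to 0.76) with MPTP in Cre- mice, 0.01 (95% CI -0.77 to 0.80) in Cre+ mice and 0.07 (95% CI -0.73 to 0.86) between the MPTP groups. With 16 to 118 counts per library, these intervals are wide.

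Of 6 listed receptors of these proteins and their complexes, 5 were tested and 3 rose with MPTP in Cre- mice, and the same 3 were lower in Cre+ MPTP than in Cre- MPTP. Ager, the gene of RAGE, was tested at 3 to 30 counts per library and was not called. Its mean was 0.880 CPM in Cre- MPTP and 0.818 in Cre- Saline, and 0.647 in Cre+ MPTP and 0.830 in Cre+ Saline. Fpr2, the receptor of annexin A1, had 3.16 ± 0.972 CPM (SD, n = 3) in Cre- MPTP. It had 0.437 ± 0.0621 (SD, n = 3) in Cre- Saline. In Cre+ MPTP it had 0.350 ± 0.232 (SD, n = 4). Its log2 fold change was 2.83 in Cre- mice given MPTP (edgeR adjusted p = 0.00828) and -3.18 between the MPTP groups (edgeR adjusted p = 0.0111). The related Fpr1 had 2.86 (edgeR adjusted p = 0.0158) and -2.67 (edgeR adjusted p = 0.0274).

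Plaur, the urokinase receptor of the plasminogen system, had 17.2 ± 9.25 CPM (SD, n = 3) in Cre- MPTP. Its level was 0.530 ± 0.231 (SD, n = 3) in Cre- Saline, while Cre+ MPTP libraries had 2.01 ± 1.099 (SD, n = 4). In Cre- mice given MPTP it rose by 5.01 (edgeR adjusted p = 0.00116), and it was lower by -3.11 (edgeR adjusted p = 0.0121) in Cre+ MPTP. Neutrophils and monocytes express all 3 receptors, and their part in these values was not tested. With each library left out in turn, Plaur stayed past the threshold with MPTP in Cre- mice in 13 of 13 fits, Fpr2 in 12 and Fpr1 in 10. For the difference of the MPTP groups Plaur did so in 11 of 13 fits, Fpr2 in 12 and Fpr1 in 10. The calls of all 3 receptors between the MPTP groups were lost with edgeR on the compared groups only (edgeR adjusted p = 0.200 for Plaur, 0.210 for Fpr2 and 0.200 for Fpr1). They were lost with the replicate block too, with an edgeR adjusted p of 0.0797 for Plaur, 0.0758 for Fpr2 and 0.140 for Fpr1.

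Of the 15 listed binding partners and cargo, all were tested and 0 were called in any of the 5 comparisons by edgeR. At an unadjusted p under 0.05 there were 3 with MPTP in Cre- mice (15% of all genes), 3 in Cre+ mice (3.47%) and 0 in the others. Of 9 other annexins 7 were tested and 0 were called in any comparison. At an unadjusted p under 0.05 there was 1 with MPTP in Cre- mice (15% of all genes). There were 3 between the MPTP groups (19%) and 2 in the interaction (5.76%). Of 9 other S100 genes 4 were tested and 2, S100a8 and S100a9, were called in both comparisons. These genes of the neutrophil protein calprotectin had log2 fold changes of 5.92 (edgeR adjusted p = 0.00295) and 5.38 (edgeR adjusted p = 0.0158) in Cre- mice given MPTP. They had -4.31 between the MPTP groups (edgeR adjusted p = 0.0133) and -4.04 (edgeR adjusted p = 0.0432). With each library left out in turn, S100a8 stayed past the threshold in 13 of 13 fits with MPTP in Cre- mice and in 11 between the MPTP groups, and S100a9 in 10 and 3. Both calls of both genes were lost with edgeR on the compared groups only, and those between the MPTP groups were lost with the replicate block. Of the 4 tested, 3 had an unadjusted edgeR p under 0.05 with MPTP in Cre- mice (15% of all genes). Between the MPTP groups 2 did (19%), and in the interaction 2 did (5.76%). S100b had the highest CPM of this list and was not called. Its mean was 149 CPM in Cre- MPTP against 250 in Cre- Saline, and 200 in Cre+ MPTP against 251.5 in Cre+ Saline.

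S100A6, or calcyclin, is a protein of growing cells, and S100a6 (chr3:90612882-90624181) was the least even of the 10 genes. It had 5.87, 4.49 and 5.99 CPM in Cre- Saline, 8.45, 15.9 and 8.52 in Cre- MPTP, 5.20, 5.86 and 5.14 in Cre+ Saline, and 3.62, 48.2, 4.97 and 4.50 in Cre+ MPTP. The 3 Cre- MPTP libraries lay above all Saline libraries. In Cre+ MPTP, replicate 2 was the highest of all 13 libraries and the other 3 were lower than the lowest Cre- MPTP library.

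With all libraries the effect of MPTP on S100a6 was a log2 fold change of 1.01 in Cre- mice (SE 0.821, edgeR adjusted p = 0.558). It was 1.495 in Cre+ mice (SE 0.790, edgeR adjusted p = 1.00), and between the MPTP groups it was 0.47 (SE 0.762, edgeR adjusted p = 0.717). Leaving out Cre+ MPTP replicate 2 turned the sign of the last value and of that in Cre+ mice. Without that library S100a6 was lower in Cre+ MPTP than in Cre- MPTP by -1.33 (SE 0.271, edgeR adjusted p = 0.0328), where 1.54% of all genes were called. Its log2 fold change in Cre+ mice was then -0.31 and that in Cre- mice stayed at 1.01 (SE 0.268, edgeR adjusted p = 0.0794). The value in Cre- mice moved most without Cre- MPTP replicate 2, to 0.63.

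In Cre+ MPTP replicate 2 the summed CPM of 280 annotated ribosomal protein pseudogenes was 207, against 37.7 to 78.5 in the other libraries except Cre- MPTP replicate 1 (439). Its Top2a, a gene of dividing cells, had 13.5 CPM against 0 to 2.85 elsewhere, while its Mki67 (1.01 CPM) lay within the range of the rest (0 to 2.14). These features were looked for after the values of S100a6 were seen, and their part in the value was not tested.

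**Figure D3:**
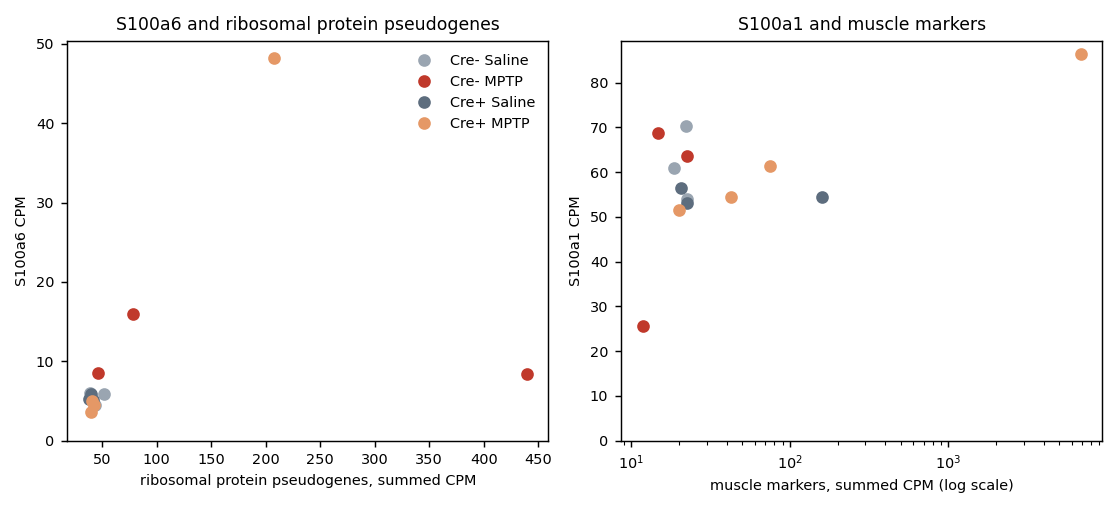
Left, S100a6 CPM against the summed CPM of 280 ribosomal protein pseudogenes, and right, S100a1 CPM against the summed CPM of 7 muscle markers on a log axis, each point 1 of 13 libraries coloured by group. The highest S100a6 value (48.2 CPM) and the highest S100a1 value (86.4 CPM) each belonged to 1 Cre+ MPTP library, the latter with 6831 CPM of muscle markers.

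S100a4, a gene of motile cells and fibroblasts, had 2 to 12 counts per library and did not reach the minimum for testing. Its CPM was 0.198, 0.0781 and 0.256 in Cre- Saline, 0.217, 0.475 and 0.396 in Cre- MPTP, 0.237, 0.244 and 0.305 in Cre+ Saline, and 0.259, 0.336, 0.178 and 0.153 in Cre+ MPTP. The groups overlapped. Without the filter on low counts its log2 fold change with MPTP in Cre- mice was 1.06 (95% CI -0.27 to 2.39, edgeR adjusted p = 0.617), and a difference was not detectable at this depth. Meningeal fibroblast markers summed to 65.8 to 160 CPM over the 13 libraries, and their part in these values was not tested.

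S100A1, a calcium sensor best known from heart and skeletal muscle, is encoded by S100a1. It had 70.4, 60.8 and 54.0 CPM in Cre- Saline, 25.6, 63.6 and 68.7 in Cre- MPTP, 54.6, 53.0 and 56.4 in Cre+ Saline, and 51.5, 61.5, 54.4 and 86.4 in Cre+ MPTP. The lowest value belonged to Cre- MPTP replicate 1 and the highest to Cre+ MPTP replicate 4, the library with the muscle markers. The part of muscle RNA in this value was not tested. The log2 fold change was -0.22 (95% CI -0.88 to 0.43) with MPTP in Cre- mice and 0.10 without replicate 1. It was 0.21 (95% CI -0.40 to 0.83) in Cre+ mice and 0.03 without Cre+ MPTP replicate 4. Between the MPTP groups it was 0.26 (95% CI -0.35 to 0.88) and turned to -0.06 without Cre- MPTP replicate 1.

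S100A13 takes part in the release of FGF1 and interleukin-1α from cells without a secretion signal. S100a13 had 15.9, 15.5 and 13.7 CPM in Cre- Saline, 10.2, 16.1 and 17.0 in Cre- MPTP, 10.9, 11.96 and 13.3 in Cre+ Saline, and 11.8, 14.9, 12.1 and 10.7 in Cre+ MPTP. Every Cre+ Saline library lay below every Cre- Saline library, as 11.6% of all genes did in either direction, and the log2 fold change between them was -0.32 (95% CI -0.76 to 0.11, edgeR adjusted p = 1.00). The values with MPTP were -0.05 (95% CI -0.49 to 0.38) in Cre- mice and 0.04 (95% CI -0.37 to 0.45) in Cre+ mice. Between the MPTP groups the value was -0.23 (SE 0.188, edgeR adjusted p = 0.497), and limma voom called it (-0.46, limma adjusted p = 0.0189).

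S100a1 (chr3:90511034-90514392, minus strand) and S100a13 (chr3:90514435-90524581, plus strand) start back to back, and the 42 bases between them are shown because the pair shares this stretch. It is printed on the plus strand of GRCm38.p6 and holds no match to the motifs searched.
S100a1-S100a13: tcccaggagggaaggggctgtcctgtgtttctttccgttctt
Over the 13 libraries the log2 CPM of the pair had a Pearson r of 0.477 (Spearman rho 0.538). Without Cre- MPTP replicate 1 alone r was 0.201. Without Cre- MPTP replicate 1 and Cre+ MPTP replicate 4, the libraries farthest from the median of S100a1, r was 0.889. In that setting S100a1 also had an r of 0.742 with S100a11 and of 0.734 with S100a10, so a high value was not particular to the pair.

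S100A16, a broadly expressed S100 protein of astrocytes and other cells, is encoded by S100a16 (chr3:90537254-90543151). It had 88.0, 85.4 and 84.7 CPM in Cre- Saline, 132.5, 60.0 and 64.0 in Cre- MPTP, 70.6, 79.9 and 87.1 in Cre+ Saline, and 64.2, 71.9, 64.4 and 62.7 in Cre+ MPTP. Cre- MPTP replicate 1 was the highest of all 13 libraries, and replicates 2 and 3 of that group lay below every Saline library. The log2 fold change with MPTP in Cre- mice was -0.01 (SE 0.243, edgeR adjusted p = 0.986) with all libraries, or 0.03 with DESeq2 size factors. S100a16 fell, with -0.47 as its log2 fold change (SE 0.0953, edgeR adjusted p = 0.00736) without replicate 1. In Cre+ mice the value was -0.27 (SE 0.227, edgeR adjusted p = 1.00), and between the MPTP groups it was -0.37 with all libraries and 0.08 without Cre- MPTP replicate 1.

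The list as a whole was described by its median. The median log2 fold change of the 9 genes was 0.18 with MPTP in Cre- mice and 0.20 in Cre+ mice, against 0.03 and 0.00337 over all genes tested. It was -0.30 between the MPTP groups (all genes 0.03) and -0.12 between the Saline groups (all genes -0.01). In Cre- mice 5 of the 9 values were above 0, and between the MPTP groups 3 of 9 were. Leaving out the 3 libraries that stood apart for a gene here (Cre- MPTP replicate 1 with replicates 2 and 4 of Cre+ MPTP), a setting chosen after the data were seen, gave 4 genes higher and 1 lower with MPTP in Cre- mice (11.4% of all genes called). It gave 4 lower between the MPTP groups (3.6% of all genes), namely S100a6, S100a10, S100a11 and Anxa2, and 0 in Cre+ mice (0.604%). The interaction of S100a6 passed in that setting (-1.498, with 2.27% of all genes called, edgeR adjusted p = 0.0383).

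Across the 13 libraries S100a11 and Anxa2 had the highest Pearson r of the 36 pairs of these genes. By Spearman's rho S100a1 with S100a11 (0.786) and with Anxa1 (0.775) were higher, and without Cre- MPTP replicate 1 the highest r was that of S100a11 and Anxa3. For S100a11 and Anxa2 the log2 CPM had a Pearson r of 0.848 (Spearman rho 0.687, r 0.837 without Cre- MPTP replicate 1), and r was 0.657 without Cre- MPTP replicates 3 and 2, the libraries farthest from the median of S100a11. S100a11 and Anxa3 had an r of 0.389 with all libraries and 0.901 without Cre- MPTP replicate 1. Their r was 0.034 when replicates 3 and 2 of that group were left out and replicate 1 was kept. The r without the whole Cre- MPTP group was not computed, so these values do not show which libraries the relation rested on. Anxa2 and its partner S100a10 had 0.484. The libraries share groups and differ in depth, so these values describe the set and are given without a test.

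**Figure D4:**
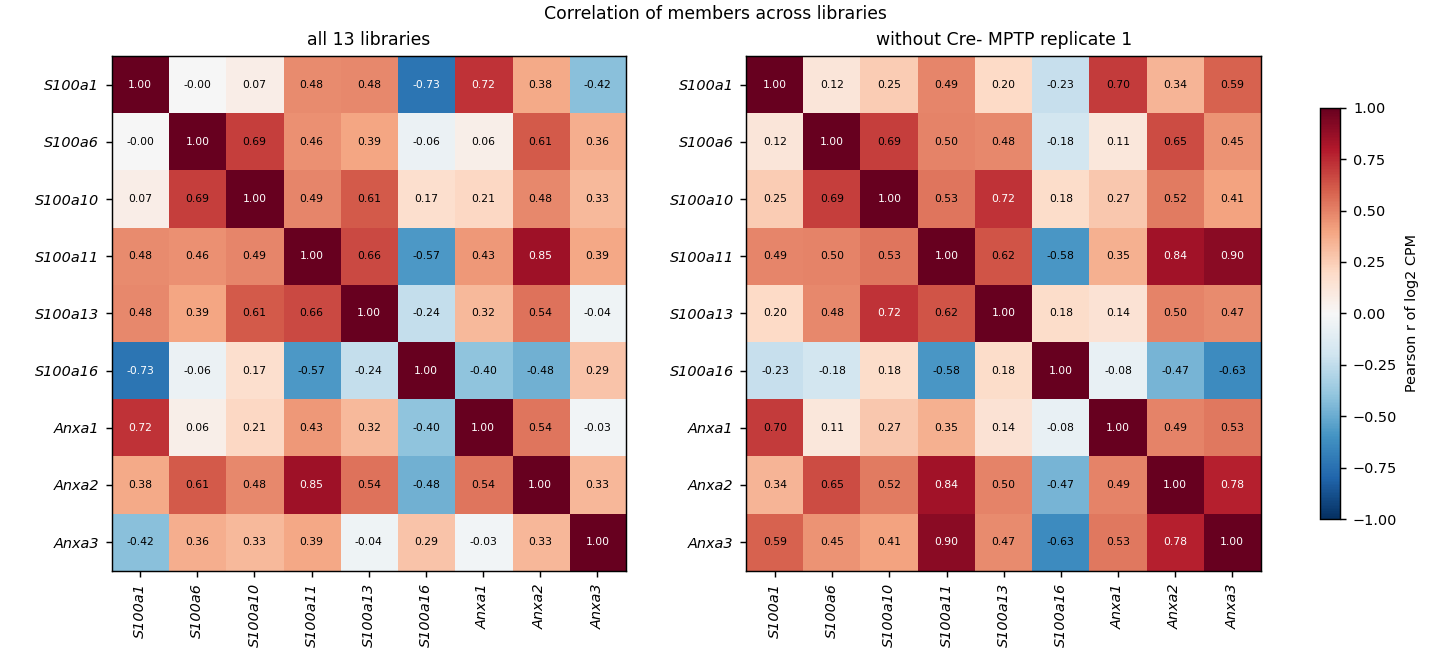
Pearson r of log2 CPM between the 9 tested genes over all 13 libraries (left) and over 12 libraries without Cre- MPTP replicate 1 (right), on a colour scale from -1 to 1. S100a11 and Anxa2 stay near 0.85 and 0.84, while S100a11 and Anxa3 go from 0.39 to 0.90.

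Among all genes tested, those whose log2 CPM over the 13 libraries was most like that of S100a11 were Ctsl (r = 0.965), of a lysosomal protease, and Cab39l (r = 0.952). Cab39l (r = 0.855) and Sulf1 (r = 0.855), of an extracellular sulfatase, came nearest to Anxa2. Clic1 (r = 0.947) and Hnrnpf (r = 0.946) were nearest to Anxa3. For S100a6 they were the pseudogene Rpl27-ps2 (r = 0.963) and Gm13456 (r = 0.962).

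For S100a10 the nearest genes were Id2 (r = 0.888), of a repressor of differentiation, and Grsf1 (r = 0.881), and for Anxa1 they were Tfpi (r = 0.824), of an inhibitor of coagulation, and Cfap58 (r = 0.808). Slc25a26 (r = 0.973) and Idh3g (r = 0.962) were nearest to S100a1, Eif2b1 (r = 0.867) and Crcp (r = 0.856) to S100a13, and Clptm1l and Igfbp2 (both r = 0.977) to S100a16. Each is the highest of all genes tested, and S100a1, S100a13, S100a16 and Anxa3 each had their lowest or highest value in Cre- MPTP replicate 1, and S100a6 and S100a10 their highest in Cre+ MPTP replicate 2, which weighs on these r values.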

How the data were processed

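Midbrain RNA-Seq libraries of 13 mice were used, 1 per mouse, and the labels' genotype and treatment gave the groups. The deposited values are whole-number read counts per gene without normalization. Per the labels and the study's methods, total RNA libraries were made with a stranded kit, and the authors used Trimmomatic 0.36 for trimming, STAR 2.5.2b for alignment to GRCm38, counted reads per gene with featureCounts of Subread 1.5.2 and tested the counts with DESeq2. Ensembl identifiers were named from GENCODE M21, which gave a symbol to 48970 of 49315 genes.

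In edgeR 4.0.16 (R 4.3.3) the counts were scaled with TMM, the 19360 genes that reached 10 counts in 3 or more libraries were kept, and the quasi-likelihood test was fitted with 1 term per group over all 13 libraries. P-values were adjusted over all genes tested by the Benjamini-Hochberg method and called under 0.05. Standard errors are the log2 fold change divided by the root of F, and log2 CPM for correlations used a prior count of 2. Spearman's rho and the r without the 2 libraries farthest from a gene's median used log2 CPM without a prior count. Totals of 11489150 to 29397278 counts limit the precision of low genes such as S100a4. Alternatives were DESeq2 1.42.0, limma 3.58.1 (voom with sample quality weights), DESeq2 size factors, other filters, the compared groups only, a replicate block and libraries left out. Fits were tested on simulated data.

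The 10 genes, the other gene lists and the rules for naming genes were chosen with earlier results of these data known. The 9 genes tested are named in each comparison. From the lists of other S100 genes, other annexins, binding partners and receptors up to 4 genes that passed the test are named, by the smallest adjusted p, and for each of the 10 the 2 genes nearest in log2 CPM. Ager and S100b are named in addition, though they did not pass. Each library is 1 mouse. Raw reads were not used here.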

Additional observations from a re-analysis of the deposited data

Results flagged for a closer look

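In the group of 4 Cre+ MPTP libraries, S100a6 in replicate 2 had 48.17 CPM and lay far from the other 3, the gap to its nearest neighbour being 0.97 of the group's range. In the same library S100a10 had 24.84 CPM, with a gap of 0.833 of the range. Both passed Dixon's 95% limit for 4 samples, which chance passes in about 1 of 20 groups, and 10 genes were examined. The groups of 3 mice were not examined in this way.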

How the results depend on the processing

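Of the 10 genes, 0 were called in any comparison under DESeq2 size factors, both other count filters, edgeR on the compared groups only and the replicate block. In these settings 0.6% to 3.68% of all genes were called with MPTP in Cre- mice and 0% to 1.85% between the MPTP groups. With MPTP in Cre- mice DESeq2 called 1 gene (6.17% of all genes) and limma voom 4 (13.6%). The fit that drops both Cre- MPTP replicate 1 and Cre+ MPTP replicate 4 called 4 (10%). The fit that also drops Cre+ MPTP replicate 2 called 5 (11.4%). Between the MPTP groups these counts were 1, 4, 1 and 4, with 4.44%, 6.32%, 2.91% and 3.6% of all genes called. In the interaction they were 0, 2, 0 and 1, with 1.19%, 3.56%, 1.15% and 2.27% of all genes called. With each library left out in turn, 0 to 4 genes were called with MPTP in Cre- mice (1.61% to 9.38% of all genes). Between the MPTP groups 0 to 1 were called (0.212% to 9.51%), and in the other comparisons 0 were (0% to 1.03%). The mean CPM of the 10 genes in each group moved by less than its SD under DESeq2 size factors and total counts in 80 of 80 cases. Depth limits S100a4 and Anxa1 most, and the Cre- MPTP group of 3 holds the shallowest library. Over all genes DESeq2 called 1137 and edgeR on the compared groups 110, against 616, with MPTP in Cre- mice, and 834 and 0, against 299, between the MPTP groups. The cause of these differences was not tested.

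The mouse numbers were not taken to pair the samples. Same-numbered libraries deviated from their group means with r of -0.179 to 0.184 over 18 pairs, 3 of them over 0.1. With so few libraries per group, these values cannot exclude a pairing. With the replicate block 428 of all genes were called with MPTP in Cre- mice and 0 between the MPTP groups. The values of Anxa1 that changed sign with the replicate block were -0.25 with MPTP in Cre+ mice, -0.18 between the MPTP groups and -0.14 in the interaction.

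None of the log2 fold changes that changed sign had passed the test with all libraries, and the cause was not tested. S100a16 with MPTP in Cre- mice had 0.0316 with DESeq2 and 0.0317 with DESeq2 size factors. With limma voom these were the values that changed sign. S100a1 had 0.13, S100a13 0.12 and Anxa1 0.16 with MPTP in Cre- mice. S100a13 had -0.00833 and Anxa1 -0.22 with MPTP in Cre+ mice. S100a1 had -0.18, S100a6 -0.90, S100a16 0.0536 and Anxa1 -0.47 between the MPTP groups. S100a6 had 0.15 between the Saline groups. S100a1 had -0.0456, S100a6 -1.05, S100a13 -0.13, S100a16 0.15 and Anxa1 -0.38 in the interaction.

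Without both Cre- MPTP replicate 1 and Cre+ MPTP replicate 4, these changed sign. S100a1 had 0.11, S100a13 0.15 and Anxa1 0.16 with MPTP in Cre- mice. Anxa1 had -0.25 with MPTP in Cre+ mice. S100a1 had -0.25, S100a16 0.10 and Anxa1 -0.44 between the MPTP groups. S100a1 had -0.0808, S100a13 -0.0442, S100a16 0.22 and Anxa1 -0.42 in the interaction. With Cre+ MPTP replicate 2 also left out, chosen after the data were seen, these did. S100a1 had 0.10, S100a13 0.14 and Anxa1 0.15 with MPTP in Cre- mice. S100a1 had -0.0475, S100a6 -0.34, S100a13 -0.0111, Anxa1 -0.44 and Anxa2 -0.0215 with MPTP in Cre+ mice. S100a1 had -0.33, S100a6 -1.51, S100a16 0.0466 and Anxa1 -0.62 between the MPTP groups. S100a1 had -0.15, S100a6 -1.50, S100a13 -0.15, S100a16 0.17 and Anxa1 -0.60 in the interaction.

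Over each library left out in turn, these values spanned 0. Anxa1 had -0.36 to 0.15, S100a1 -0.46 to 0.10, S100a13 -0.18 to 0.14 and S100a16 -0.47 to 0.17 with MPTP in Cre- mice. Anxa1 had -0.28 to 0.23, S100a13 -0.0644 to 0.11 and S100a6 -0.31 to 1.81 with MPTP in Cre+ mice. Anxa1 had -0.20 to 0.36, Anxa2 -0.55 to 0.025, S100a1 -0.0644 to 0.51, S100a16 -0.56 to 0.0816 and S100a6 -1.33 to 0.84 between the MPTP groups. Anxa1 had -0.24 to 0.26, S100a10 -0.20 to 0.0668 and S100a6 -0.14 to 0.0649 between the Saline groups. Anxa1 had -0.20 to 0.38, S100a13 -0.10 to 0.23, S100a16 -0.44 to 0.20 and S100a6 -1.32 to 0.85 in the interaction.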
